A study of Mus musculus with 18 samples.

Results

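The 8 genes followed here mark the thick ascending limb, the macula densa and the distal convoluted tubule of the kidney, and were read in whole kidneys of mice with and without Ecm1. These are Umod, Slc12a1, Kcnj1, Bsnd, Nos1, Slc12a3, Trpm6 and Pvalb, chosen by name as genes of salt and magnesium transport and markers of these segments. These 8 genes were found among the 22063 genes of the table, each in 1 row, and 8 of 8 were among the 14774 genes that passed the filter on low counts. Kidney RNA was sequenced from WT and Ecm1-KO animals aged 1, 2 or 4 weeks, in 6 groups of 3 libraries. The labels give no strain, no sex, and no description of how or in which cells Ecm1 was removed. Whether each library is a separate animal is not stated, so the p-values speak of spread between libraries, part of which may be technical.

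Ecm1, which encodes a secreted matrix glycoprotein, was at 27.3 to 54.7 CPM (read counts scaled to library size) in the 9 WT libraries and at 0 to 0.139 CPM in the 9 KO libraries. Total counts ran from 14930565 to 21427764 per library. By Y-linked transcripts, 11 of the 18 libraries were male, and sex was not balanced. At 1 week only WT replicate 2 was male, at 2 weeks only WT replicate 1 was female, and at 4 weeks only KO replicate 3 was female. No library was at 0 for any of the 8 segment genes, although Nos1, Trpm6 and Pvalb were scarce. Pvalb had 2 counts in WT replicate 1 of 1 week. Since these genes had passed the filter on low counts, this is no independent check of the tissue label.

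The thick ascending limb reabsorbs salt without water through the apical cotransporter NKCC2, encoded by Slc12a1. Potassium returns to the lumen through ROMK (Kcnj1), and chloride leaves through basolateral channels whose subunit barttin is encoded by Bsnd. Uromodulin (Umod), made in the same cells, is the most abundant protein of normal urine. The macula densa, a plaque of cells at the end of this limb, senses luminal salt and signals to renin cells and the afferent arteriole, in part through neuronal nitric oxide synthase (Nos1). The distal convoluted tubule follows, with the thiazide-sensitive cotransporter NCC (Slc12a3), the magnesium channel TRPM6 and, in its early portion, the calcium-binding protein parvalbumin (Pvalb).

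By GENCODE M21 (GRCm38), the thick limb gene Umod (ENSMUSG00000030963) lies at chr7:119462711-119479282 on the minus strand, Slc12a1 at chr2:125152505-125230002 on the plus strand, Kcnj1 at chr9:32372493-32399197 on the plus strand and Bsnd at chr4:106483456-106492283 on the minus strand. Nos1 lies at chr5:117781032-117958840 on the plus strand. The distal genes are Slc12a3 at chr8:94329201-94366214 and Trpm6 at chr19:18749983-18892511, both on the plus strand, and Pvalb at chr15:78191114-78206400 on the minus strand. Umod, Slc12a1 and Nos1 each have an annotated antisense gene that overlaps them. Strandedness was not given in the sources used here. Sense and antisense reads of these genes therefore could not be told apart.

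Promoter windows of 250 bases before to 50 bases after the start site were found for 7 of the 8 genes in RefSeq tables of GRCm38.p6, and Bsnd had no entry. The stretches below are shown because the 3 distal convoluted tubule genes each hold the palindromic letters GCCNNNGGC, which the AP-2 family of factors can bind. Capitals mark these letters and, in Slc12a3, the TATA box TATAAA. The 3 lines cover the 100 bases before the start site and are written 5′ to 3′ on the strand of the gene, at chr8:94329108-94329207 (plus), chr19:18749630-18749729 (plus) and chr15:78206401-78206500 (minus).
Slc12a3: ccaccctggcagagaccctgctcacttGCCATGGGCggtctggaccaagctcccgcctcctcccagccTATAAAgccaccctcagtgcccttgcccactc
Trpm6: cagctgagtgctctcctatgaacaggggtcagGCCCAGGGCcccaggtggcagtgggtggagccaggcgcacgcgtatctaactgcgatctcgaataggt
Pvalb: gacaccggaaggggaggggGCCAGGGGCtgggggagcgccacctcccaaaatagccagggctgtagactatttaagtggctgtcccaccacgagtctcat
Both strands were searched. The letters GCCNNNGGC were present in 4 of the 7 genes (Slc12a3, Trpm6, Pvalb and Umod) and in 16.6% of 32851 promoters of the same length. Genes were counted once if any window matched, as Pvalb did in separate windows, while the percentages are of single windows. The units of these shares are therefore not alike. TATAAA was present in 1 of 7 genes and in 13.6% of promoters. The estrogen-related receptor site TCAAGGTCA (0.423%) and its core AAGGTCA (4.72%), which lies within it, were in 0 of the 7 windows. A match describes letters only.

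Levels per transcript length, in the deposited FPKM (fragments scaled by transcript length and library total), kept 1 order for the 5 most abundant genes in all 6 groups: Umod, Slc12a1, Slc12a3, Kcnj1 and Bsnd. In WT kidneys of 4 weeks their mean FPKM was 1246, 272.5, 101, 79.9 and 21.8. The ranges of Umod and Slc12a1 overlapped across WT libraries of 1 week, but within a library Umod was the higher in 18 of 18. The ranges of Slc12a3 and Kcnj1 overlapped in all 4 groups of 2 and 4 weeks, and within a library Slc12a3 was the higher in 15 of 18, so the order of this pair was not the same in every library. Among the 3 scarce genes the order turned with age. At 1 week the mean FPKM of Nos1 in WT was 2.01, beside 1.43 for Trpm6 and 0.562 for Pvalb, but Nos1 and Trpm6 overlapped in both genotypes, and Nos1 was the higher in 2 of 3 WT and 1 of 3 KO libraries. At 4 weeks Pvalb had the highest mean of the 3 in WT, at 11.7, above Trpm6 (3.59) and Nos1 (0.18) without overlap. In KO of 4 weeks the means were 6.52, 3.68 and 0.488 in the same order, and Pvalb and Trpm6 overlapped, with Trpm6 the higher in 1 of 3 libraries. NCC transcripts as a share of NKCC2 transcripts, both in FPKM, ran from 20.7% in KO replicate 3 of 2 weeks to 53.5% in KO replicate 3 of 4 weeks. The WT libraries of 4 weeks were at 45.8%, 43.9% and 25.9%, and the KO libraries at 34.7%, 25.5% and 53.5%, so the genotypes overlapped.

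Umod rose at each step in age in both genotypes. At 1 week it was at 596, 933 and 861 CPM in WT replicates 1 to 3 and at 790, 909 and 1006 CPM in KO replicates 1 to 3. At 2 weeks the WT libraries were at 1448, 1917 and 1697 CPM and the KO libraries at 1470, 1879 and 1701 CPM. At 4 weeks they were at 3859, 3877 and 5144 CPM in WT and at 3665, 5016 and 3138 CPM in KO. The ages did not overlap in either genotype, while the genotypes overlapped at every age. The log2 rise from 1 to 2 weeks was 1.08 ± 0.20 (SE) in WT (edgeR adjusted p = 0.00116) and 0.90 ± 0.20 in KO (0.00502). From 2 to 4 weeks it was 1.35 ± 0.20 in WT (adjusted p = 5.5e-05) and 1.23 ± 0.20 in KO (0.000218).

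Slc12a1 rose from 1 to 2 weeks in both genotypes. At 1 week it was at 1088, 1276 and 1087 CPM in WT and at 1128, 1515 and 1382 CPM in KO. The 2-week levels were 2158, 2105 and 1875 CPM in WT and 1923, 2215 and 2128 CPM in KO. At 4 weeks the WT libraries were at 1481, 1520 and 2084 CPM and the KO libraries at 2151, 2285 and 2093 CPM. The genotypes separated at 4 weeks only, where the lowest KO library stood just above WT replicate 3 and the other WT libraries were lower. The first step was 0.83 ± 0.14 in WT (adjusted p = 0.000676) and 0.64 ± 0.14 in KO (0.00503). From 2 to 4 weeks the log2 difference was -0.27 ± 0.14 in WT (adjusted p = 0.122) and 0.06 ± 0.14 in KO (0.768). Neither passed in the counts, but on the FPKM scale with limma the WT value was -0.76 and passed (adjusted p = 0.000233), as it did without WT replicate 3 of 4 weeks (-0.45, 0.016). KO against WT at 4 weeks was 0.36 ± 0.14, with a 95% interval from 0.06 to 0.66, and did not pass after adjustment (0.184).

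Kcnj1 and Bsnd, whose products serve the same salt uptake, were called in different age steps, and the 2 genes were not compared in a test. Kcnj1 was at 139, 156 and 152 CPM in WT and 162, 169 and 184 CPM in KO at 1 week, and at 196, 324 and 245 CPM in WT and 201, 303 and 338 CPM in KO at 2 weeks. At 4 weeks it was at 291, 281 and 338 CPM in WT and 355, 297 and 368 CPM in KO. The 1-week libraries lay below all older ones, while those of 2 and 4 weeks overlapped. Kcnj1 rose from 1 to 2 weeks, by 0.78 ± 0.18 in WT (adjusted p = 0.00573) and 0.71 ± 0.18 in KO (0.012). On the FPKM scale with limma these 2 rises were 0.51 and 0.44 and did not pass (0.0935 and 0.15), and the KO rise missed the threshold without KO replicate 2 of 2 weeks (0.0501). From 2 to 4 weeks Kcnj1 differed by 0.25 ± 0.18 in WT (edgeR adjusted p = 0.267) and 0.28 ± 0.18 in KO (0.245), and neither passed.

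Levels of Bsnd were 101, 98.2 and 94.2 CPM in WT and 97.7, 94.0 and 97.5 CPM in KO at 1 week. They were 97.7, 142 and 105 CPM in WT and 91.5, 139 and 141 CPM in KO at 2 weeks. At 4 weeks they were 88.1, 72.1 and 80.0 CPM in WT and 93.3, 60.9 and 93.1 CPM in KO. The 4-week libraries of WT were all below those of 2 weeks, while those of KO overlapped. From 1 to 2 weeks Bsnd differed by 0.23 ± 0.18 in WT (edgeR adjusted p = 0.381) and 0.36 ± 0.18 in KO (0.176), and neither passed. Bsnd fell by 0.52 ± 0.18 in WT (adjusted p = 0.025) and by 0.58 ± 0.18 in KO (0.018) from 2 to 4 weeks. Leaving out WT replicate 2 of 2 weeks gave -0.34 (0.154), and the WT call also ended without WT replicate 2 (0.0927) or replicate 3 (0.0604) of 4 weeks. The KO call ended without KO replicate 2 (0.0756) or replicate 3 (0.0868) of 2 weeks, or KO replicate 2 of 4 weeks (0.0824).

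**Figure D1:**
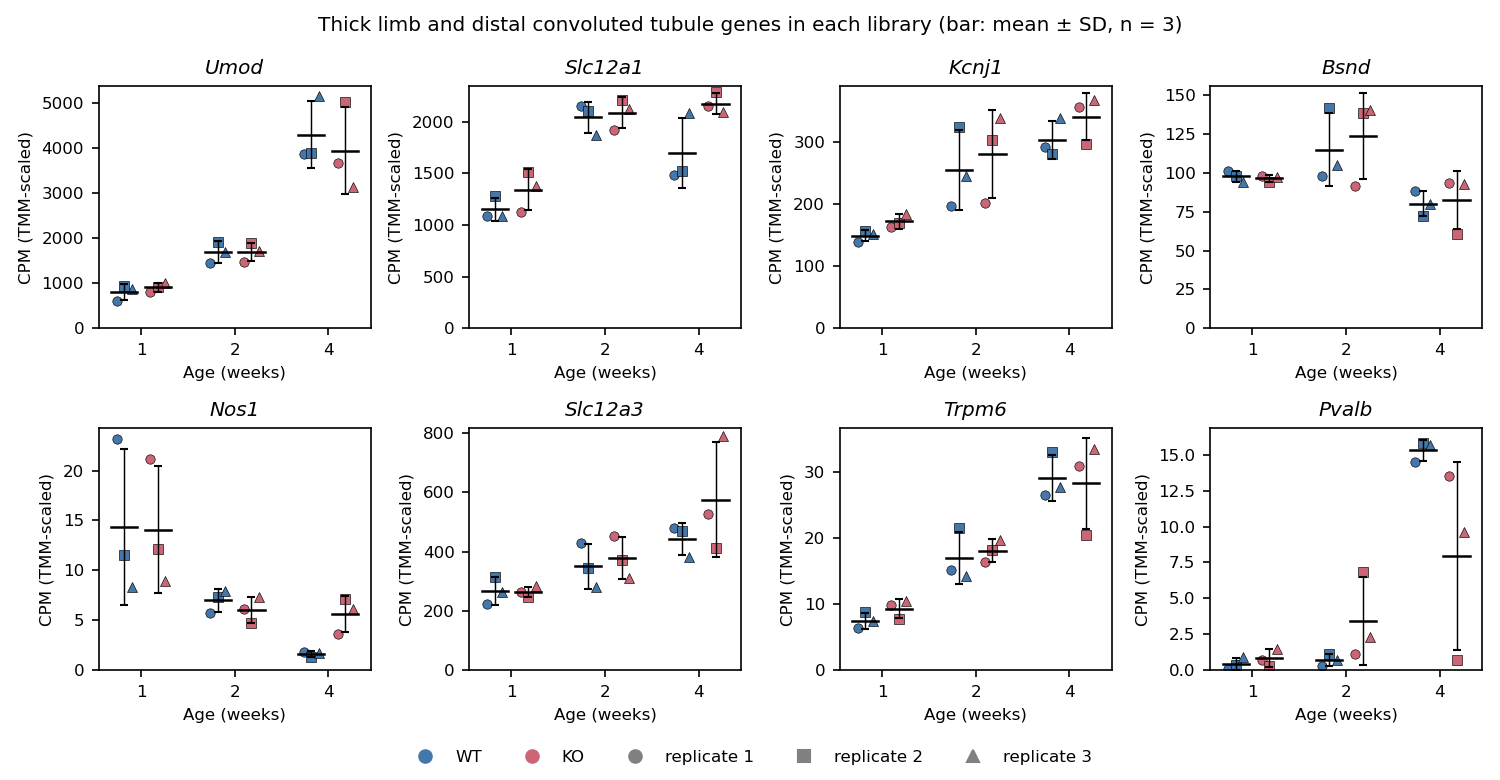
Each panel plots 1 gene in CPM (vertical axis, from 0) against age in weeks, with WT in blue, KO in red, marker shapes for replicate numbers, and bars for mean ± SD of 3 libraries. Umod is at 3138 CPM or more in all 6 libraries of 4 weeks, Nos1 drops to 1.28 to 1.80 CPM in WT but not as far in KO, and Pvalb reaches 14.5 to 15.8 CPM in WT of 4 weeks with 1 KO library at 0.716.

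Nos1, the macula densa marker, was the single member that differed by genotype after adjustment, and it did so at 4 weeks. At 1 week it was at 23.2, 11.5 and 8.30 CPM in WT and 21.2, 12.2 and 8.94 CPM in KO. By 2 weeks it was at 5.68, 7.34 and 7.95 CPM in WT and 6.11, 4.69 and 7.34 CPM in KO. At 4 weeks the WT libraries were at 1.80, 1.28 and 1.73 CPM, from 27, 19 and 19 counts, and the KO libraries at 3.58, 7.08 and 6.17 CPM, from 52, 89 and 89 counts. Every KO library of 4 weeks lay above every WT library, with replicate 1 the nearest, and in KO the 2-week and 4-week libraries overlapped.

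KO exceeded WT at 4 weeks by 1.81 ± 0.43 on the log2 scale (95% interval 0.89 to 2.72, adjusted p = 0.0339, higher in 3 of 3 libraries). With age, WT fell by 2.13 ± 0.42 from 2 to 4 weeks (0.000678), and KO differed by -0.11 ± 0.38 (0.841). The genotype by age term for this step was 2.02 ± 0.57 and did not pass with edgeR (adjusted p = 0.192), while DESeq2 called it (0.037). From 1 to 2 weeks Nos1 fell by 1.22 ± 0.37 in KO (0.0284) and was -1.03 ± 0.36 in WT (0.0504), just outside the threshold. The KO fall ended without KO replicate 1 of 1 week (-0.79, 0.162), replicate 2 of 1 week (0.0511), or replicate 1 (0.0668) or 2 (0.122) of 2 weeks. The WT value passed with another scaling (RLE, 0.0466), with DESeq2 (0.0255) and without WT replicate 3 of 1 week (-1.30, 0.0201).

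The genotype call on Nos1 rested on few reads. It ended when any WT library of 4 weeks was left out (adjusted p 0.0674, 0.141 and 0.107 without replicates 1, 2 and 3) and without KO replicate 2 (0.106) or 3 (0.114), with log2 differences between 1.61 and 1.91. With sex as a covariate it was 1.77 (0.0646), in the fit on the 6 libraries compared 1.82 (0.103), and without KO replicate 3 the comparison is of male libraries only (1.73, 0.114). In FPKM the genotypes overlapped, since the WT libraries were at 0.136, 0.116 and 0.288 and the KO libraries at 0.275, 0.649 and 0.539. With limma on log2(FPKM + 1), a scale that understates changes of scarce genes, the difference was 0.33 (adjusted p = 0.561), and on log2(FPKM + 0.1) it was 1.06 (0.179). The transcript length implied by count and FPKM for Nos1 ran from 4.42 to 10.1 kb across libraries, a 2.29-fold range, against at most 1.22-fold for the other 7 genes. The part of this in the result was not tested.

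Nos1 is also expressed in nerves, so 10 neuronal markers were read beside it. Their summed level was 2.24 to 7.84 CPM in 17 libraries and 35.5 CPM in WT replicate 3 of 1 week, where the catecholamine enzymes Th and Dbh were each at 14.1 CPM and Nos1 was at its lowest for that age. At 4 weeks the sum was 4.25 to 4.81 CPM in WT and 2.83 to 6.84 CPM in KO, so the groups overlapped, and Th and Dbh were at 0 in all but KO replicate 2. None of the 6 tested neuronal markers was called between genotypes at 4 weeks by edgeR (0 at an unadjusted p under 0.05), DESeq2 or limma on FPKM.

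Slc12a3 did not pass between genotypes at any age. At 1 week it was at 222, 316 and 265 CPM in WT and 262.5, 246 and 282.5 CPM in KO. The 2-week values were 429, 343 and 279 CPM in WT and 454, 373 and 312 CPM in KO. The 4-week values were 478, 469.5 and 381 CPM in WT and 526, 411 and 789 CPM in KO. The highest value of the 18 belonged to the female KO replicate 3 of 4 weeks, KO replicate 1 of that age was also above the WT range, and neighbouring ages overlapped within WT. KO against WT at 4 weeks was 0.38 ± 0.22 (95% interval -0.08 to 0.83, adjusted p = 0.411). Slc12a3 rose in KO from 2 to 4 weeks by 0.60 ± 0.22 (adjusted p = 0.0387) and was 0.34 ± 0.22 in WT (0.207). The KO rise was 0.30 (0.259) without KO replicate 3 of 4 weeks, ended without KO replicate 1 of 4 weeks (0.0529) or replicates 2 (0.0881) or 3 (0.153) of 2 weeks, and was 0.19 on the FPKM scale (0.435). It was 0.48 (0.0954) with sex as a covariate and 0.60 (0.127) in the fit on the 6 libraries compared. The genotype by age term was 0.26 ± 0.30 (0.879), so the steps were not shown to differ.

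Trpm6, the channel for magnesium entry, rose at every step in both genotypes. It was at 6.32, 8.75 and 7.38 CPM in WT and 9.81, 7.70 and 10.5 CPM in KO at 1 week. By 2 weeks it was at 15.2, 21.6 and 14.3 CPM in WT and 16.4, 18.3 and 19.7 CPM in KO. By 4 weeks it was at 26.5, 33.0 and 27.7 CPM in WT and 31.0, 20.4 and 33.5 CPM in KO. The ages did not overlap in either genotype, and KO replicate 2 of 4 weeks was the lowest of its age. The rises were 1.18 ± 0.20 in WT (adjusted p = 0.000708) and 0.96 ± 0.20 in KO (0.0037) from 1 to 2 weeks, then 0.77 ± 0.20 in WT (0.00428) and 0.65 ± 0.20 in KO (0.0171). The second-step rises were 0.27 (0.121) and 0.24 (0.192) on the FPKM scale and did not pass there. In KO the second step also ended without KO replicate 1 of 2 weeks (0.0585) or replicates 1 (0.0636) or 3 (0.0811) of 4 weeks.

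Pvalb changed most with age in WT and varied most among the KO libraries. At 1 week it was at 0.0916, 0.34 and 0.916 CPM in WT and 0.701, 0.268 and 1.49 CPM in KO. At 2 weeks it was at 0.296, 1.09 and 0.707 CPM in WT and 1.09, 6.86 and 2.32 CPM in KO. At 4 weeks the WT libraries were at 14.5, 15.8 and 15.7 CPM, and the KO libraries at 13.5, 0.716 and 9.63 CPM. The 3 WT libraries of 4 weeks stood close together, and KO replicate 2 stood at the level of the younger kidneys. In WT, Pvalb rose by 4.41 ± 0.90 from 2 to 4 weeks (adjusted p = 0.000834). In KO the same step was 1.21 ± 0.77 (0.233), or 1.74 (0.0497) without KO replicate 2 of 4 weeks. The genotype by age term was -3.20 ± 1.16 and did not pass (0.354). KO against WT was 2.26 ± 0.88 at 2 weeks (unadjusted p = 0.0204, adjusted p = 1.0) and -0.94 ± 0.75 at 4 weeks (0.598), with a 95% interval at 4 weeks from -2.52 to 0.64. Skeletal muscle also makes parvalbumin. The 10 muscle markers summed to 1.46 to 2.03 CPM in WT and 1.51 to 1.52 CPM in KO at 4 weeks, with the fast myosin gene Myh4 and the troponin gene Tnnc2 at 0 in all 6 libraries.

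Counted over the 8 genes, fewer were called for genotype than for age, which was also the case over all genes. In bulk tissue, fewer cells of a type and less RNA per cell cannot be told apart, which holds for every value here. KO against WT gave 0 called genes of 8 at 1 week by edgeR (0.00677% of all genes called), by DESeq2 (0.022%) and by limma on FPKM (0.0135%), with 0 at an unadjusted edgeR p under 0.05. At 2 weeks it gave 0 by edgeR (0.00677%), DESeq2 (0.011%) and limma (0.00677%), with 1 gene (Pvalb) at an unadjusted p under 0.05. At 4 weeks edgeR gave 1 of 8 (Nos1, higher), against 3.23% of all genes called, 1.51% higher and 1.72% lower. DESeq2 also gave 1 (5.89% of all genes), and limma on FPKM 0 (2.47%). The median log2 difference over the 8 genes was 0.19, 0.10 and 0.10 at 1, 2 and 4 weeks, beside 0.00 over all genes at each age. Averaged over the ages, 0 of 8 passed by edgeR (0.0338% of all genes), DESeq2 (0.705%) or limma on FPKM (0.0609%), with 2 at an unadjusted edgeR p under 0.05.

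The KO and WT libraries did not overlap in CPM for 1 of the 8 genes at 1 week (Kcnj1, higher in KO), where 9.37% of all genes did the same in either direction. At 2 weeks this held for 1 gene (Pvalb, higher in KO; 5.11% of all genes). At 4 weeks it held for 3 (Slc12a1 and Nos1 higher in KO, Pvalb lower), against 20.9% of all genes.

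From 1 to 2 weeks, 4 of the 8 genes rose in WT (Umod, Slc12a1, Kcnj1 and Trpm6), with 23.6% of all genes called, 12.5% higher and 11.1% lower. In KO the step gave 4 rises, in the same 4 genes, and 1 fall (Nos1), with 19.5% of all genes called, 10.3% higher and 9.16% lower. The KO libraries of 1 week were all female and those of 2 weeks all male, so sex and age cannot be told apart within that step. With sex as a covariate, taken from the mixed groups, 1 of these 5 calls remained, that of Trpm6. In the mixed group WT of 2 weeks the female library is replicate 1. Umod and Kcnj1 were low in replicate 1 of both genotypes at that age, so sex and replicate number cannot be told apart within that group. Umod was then 0.52 (adjusted p = 0.154), Slc12a1 0.57 (0.0661), Kcnj1 0.56 (0.151) and Nos1 -1.13 (0.173). From 2 to 4 weeks, WT gave 3 rises (Umod, Pvalb and Trpm6) and 2 falls (Nos1 and Bsnd), with 48.3% of all genes called, 23.5% higher and 24.8% lower. KO gave 3 rises (Umod, Trpm6 and Slc12a3) and 1 fall (Bsnd), with 36.9% called, 18.2% higher and 18.7% lower. Libraries of neighbouring ages did not overlap for 5 of 8 genes in WT (41.8% of all genes) and 6 of 8 in KO (38.3%) from 1 to 2 weeks, and for 5 of 8 in WT (55.0%) and 2 of 8 in KO (43.3%) from 2 to 4 weeks. The steps within a genotype share their 2-week libraries. Genotype by age called 0 of 8 for 2 weeks against 1 by edgeR (0.0% of all genes), DESeq2 (0.011%) and limma on FPKM (0.0%), with 0 at an unadjusted edgeR p under 0.05. For 4 weeks against 2 it called 0 by edgeR (0.176%) and limma (0.23%) and 1 by DESeq2 (1.18%), with 2 at an unadjusted p under 0.05. For 4 weeks against 1 it called 0 by edgeR (0.0609%), DESeq2 (1.06%) and limma (0.142%), with 1 at an unadjusted p under 0.05.

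**Figure D2:**
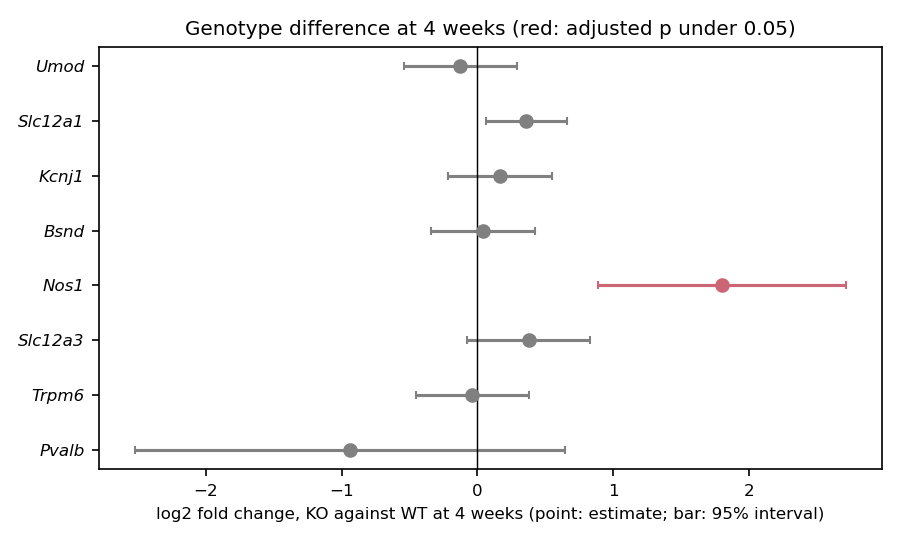
Points show the edgeR log2 fold change of KO against WT at 4 weeks for each of the 8 genes, and bars the 95% interval. Nos1 (red, 1.81) is the 1 gene that passed after adjustment, the interval of Slc12a1 runs from 0.06 to 0.66, and the interval of Pvalb from -2.52 to 0.64 is the widest.

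Scaling bore on the age steps. On the FPKM scale the median gene differed by -0.18 (WT) and -0.16 (KO) from 1 to 2 weeks and by -0.34 (WT) and -0.27 (KO) from 2 to 4 weeks, while with TMM it stayed between -0.05 and 0.01. Accordingly the split of calls over all genes from 2 to 4 weeks in WT was 3468 higher and 3670 lower by edgeR, and 1262 higher and 7211 lower by limma on log2(FPKM + 1). In KO it was 2690 and 2757 against 1024 and 5967. From 1 to 2 weeks the split was 1842 and 1639 against 851 and 3501 in WT, and 1527 and 1354 against 754 and 3103 in KO. For KO against WT at 4 weeks it was 223 and 254 against 200 and 165. The age steps called by edgeR for Umod, Slc12a1, Kcnj1, Bsnd, Nos1, Slc12a3, Trpm6 and Pvalb kept their direction in the 3 limma fits on FPKM, and those that no longer passed there (Kcnj1, Slc12a3 and the later step of Trpm6) are given above.

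Other genes of the same segments were read beside the members. Of 19 thick limb genes besides the members, 10 rose and 1 fell in WT from 1 to 2 weeks, with a median log2 difference of 0.43 beside 0.01 over all genes, and 8 rose in KO, where 12.5% and 10.3% of all genes rose. Egf, the epidermal growth factor precursor made in the thick limb and distal tubule, rose by 3.22 ± 0.29 in WT (adjusted p = 1.17e-05) and 3.32 ± 0.29 in KO (8.01e-06). From 2 to 4 weeks 5 rose and 5 fell in WT, and 5 rose and 2 fell in KO, near the 48.3% and 36.9% of all genes called in these steps. Egf rose again, by 1.52 ± 0.27 in WT (0.000279) and 1.59 ± 0.27 in KO (0.000317). The claudins of paracellular magnesium and calcium uptake went the other way. Cldn19 fell by 1.58 ± 0.24 in WT (6.13e-05) and 1.59 ± 0.24 in KO (0.000106), and Cldn16 by 1.03 ± 0.14 in WT (2.1e-05) and 0.52 ± 0.13 in KO (0.00685).

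At 4 weeks, KO against WT called 1 of the 19 thick limb genes. Cldn16 was at 8.18, 8.38 and 6.99 CPM in WT and 11.6, 11.9 and 10.7 CPM in KO, and it rose by 0.53 ± 0.14 (adjusted p = 0.0485). No library overlapped, but the call ended when any 1 of the 6 libraries was left out (0.0568 to 0.193) and with replicate number as a block (0.0502), sex as a covariate (0.0964), no filter on low counts (0.0643) or the 6 libraries fitted alone (0.17). The 19 genes had a median of 0.17 beside 0.00 over all genes, and 0 of them passed at 1 or 2 weeks by edgeR, DESeq2 or limma on FPKM, with 1 and 0 at an unadjusted edgeR p under 0.05.

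Of 6 other macula densa genes, 1 passed at 4 weeks. Pappa2, a protease of insulin-like growth factor binding proteins, was at 0.731, 0.811 and 1.73 CPM in WT and 7.79, 21.3 and 8.73 CPM in KO. It rose by 3.58 ± 0.65 (adjusted p = 0.00893), with every KO library above every WT library, and the value was 3.41 (0.0639) without WT replicate 2 and 3.59 (0.0921) in the fit on the 6 libraries compared. On log2(FPKM + 1) with limma it was 0.94 (0.182), and on log2(FPKM + 0.1) 2.65 (0.00763). At 1 week the genotypes overlapped, with 24.6 to 82.4 CPM in WT and 42.1 to 114 CPM in KO. Pappa2 fell by 2.86 ± 0.50 in WT (0.000798) and 2.69 ± 0.49 in KO (0.00141) from 1 to 2 weeks, and by 2.79 ± 0.65 in WT from 2 to 4 weeks (0.00235), a step of -0.72 on log2(FPKM + 1) that did not pass (0.086). Ptgs2, the cyclooxygenase of the macula densa, was at 0.465, 1.01 and 0.363 CPM in WT and 0.482, 6.13 and 3.74 CPM in KO at 4 weeks. Its difference of 2.44 ± 0.79 did not pass (0.106), but did without KO replicate 1 (2.96, 0.0138), with the block (0.0269) and with DESeq2 (0.0214). The 6 genes had a median of 0.08, and 3 of the 6 were positive.

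Renin, released by the neighbouring cells of the afferent arteriole, was read as the target of macula densa signals. Ren1 was at 82.8, 67.2 and 100.5 CPM in WT and 91.2, 239 and 201 CPM in KO at 4 weeks. KO replicate 1 lay within the WT range and the other KO libraries above it. The difference of 1.08 ± 0.38 did not pass (adjusted p = 0.134), and was 1.40 (0.0265) without KO replicate 1. None of the 4 renin cell genes passed at 4 weeks by edgeR (1 at an unadjusted p under 0.05) or limma on FPKM, DESeq2 called Ren1 (0.0486), and the list had a median of 0.65 beside 0.00 over all genes.

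Of 16 other distal convoluted tubule genes, 0 passed at 4 weeks between genotypes by edgeR, DESeq2 or limma on FPKM, with 3 at an unadjusted edgeR p under 0.05 and a median of -0.02. Egf and Fxyd2 are in this list and in that of the thick limb. From 2 to 4 weeks 9 rose and 2 fell in WT, and 7 rose and 2 fell in KO, where 23.5% and 18.2% of all genes rose and 24.8% and 18.7% fell. Kl, the klotho co-receptor of fibroblast growth factor 23, rose by 1.02 ± 0.20 in WT (adjusted p = 0.000528) and 0.56 ± 0.19 in KO (0.0324), and the basolateral potassium channel gene Kcnj16 by 0.86 ± 0.12 (3.55e-05) and 0.87 ± 0.12 (6.28e-05). Of 13 genes of the WNK and SPAK kinase pathway, which activates both cotransporters, 1 passed at 4 weeks. Sgk1, a kinase induced by mineralocorticoids, was at 151, 159.5 and 163 CPM in WT and 210, 428 and 716 CPM in KO, and rose by 1.52 ± 0.31 (0.0142). Its value was 1.02 (0.0731) without the female KO replicate 3, and the call also ended without WT replicate 2 (0.0709) or 3 (0.0622) and in the fit on the 6 libraries compared (0.152).

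The KO libraries of 4 weeks were not alike. In KO replicate 2, 9 of the 16 distal convoluted tubule genes lay below the range of the 3 WT libraries and 3 above it. Over all genes, 33.4% lay below that range in replicate 2 and 32.9% above it. In replicate 1, 9 of the 16 lay above and 3 below (27.4% and 28.7% of all genes), and in replicate 3, 7 above and 5 below (33.0% and 34.2%). Of the 19 thick limb genes, replicate 2 had 13 above the WT range and 5 below, replicate 1 had 7 and 2, and replicate 3 had 7 and 6. Calb1, a calcium-binding protein of the later distal tubule, was at 1069, 294 and 683 CPM in KO replicates 1 to 3, against 707 to 781 CPM in WT. Slc8a1, the sodium-calcium exchanger, was at 348, 68.7 and 143 CPM against 236.5 to 332.5 CPM. Among the 3 KO libraries, replicate 2 was the lowest for 5 of the 8 members (Kcnj1, Bsnd, Slc12a3, Trpm6 and Pvalb) and the highest for Umod, Slc12a1 and Nos1. It was the lowest for 14 of the 16 other distal genes. Of the 6 other macula densa genes it was the highest for Pappa2, Ptgs2 and Ptges and the lowest for Avpr1a, Slc9a2 and Ramp3, and of the 19 thick limb genes it was the highest for 8 and the lowest for 5. How often replicate 2 was the lowest or highest over all genes was not counted. Whether this order is particular to the distal genes was therefore not tested. The difference of Slc8a1 between genotypes was -0.57 (adjusted p = 0.487) and became -1.38 (0.00497) without KO replicate 1. That of Calb1 was -0.12 (0.892), and 0.24 (0.62) without KO replicate 2.

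**Figure D3:**
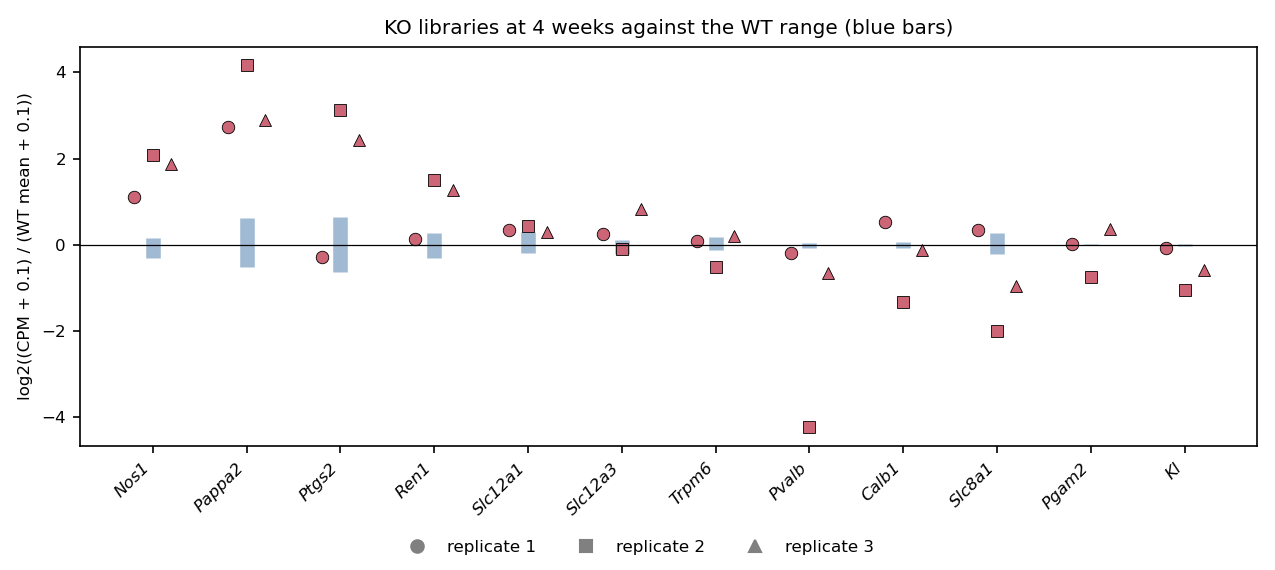
Each point is a KO library of 4 weeks, as log2 of its CPM plus 0.1 over the WT mean plus 0.1, with blue bars for the range of the 3 WT libraries. From left to right stand macula densa and renin genes, the thick limb gene Slc12a1 and distal tubule genes. Those beside the members were picked from the lists after their values were seen. In replicate 2, 9 of the 16 other distal genes were below the WT range and 3 above it. Of the 6 other macula densa genes, 3 were above it and 3 below. Replicate 2 (square) is at 4.17 for Pappa2 and at -4.24 for Pvalb, while replicate 1 (circle) is the nearest of the 3 to the WT mean for Nos1, Pappa2, Ptgs2, Ren1 and Pvalb.

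Other cell types were read beside the 4-week values. Of 14 proximal tubule markers, 1 fell in KO by edgeR, where 1.72% of all genes fell. DESeq2 called 3 of them (5.89% of all genes) and limma on FPKM 1 (2.47%). The summed CPM of the 14 was 38860 to 41420 in WT and 21700 to 28710 in KO, without overlap. A sum weighs the most abundant genes most, and the median log2 difference of the 14 was -0.28, with 3 positive. Of 8 podocyte markers 3 rose by edgeR, where 1.51% of all genes rose. DESeq2 called 6 of the 8, and limma on FPKM also 6. Their sums were 681 to 828 CPM in WT and 1122 to 1152 CPM in KO, also without overlap. The 10 intercalated cell markers were all positive with a median of 0.41, none passed by edgeR (5 at an unadjusted p under 0.05) or DESeq2, 1 did by limma on FPKM, and their sums were 485.5 to 537 CPM in WT and 591 to 864 CPM in KO. Sums of the 10 thin limb markers (1309 to 1481 CPM in WT, 1191 to 1536 CPM in KO) and of the 10 principal cell markers (851.5 to 939.5 and 833.5 to 1114 CPM) overlapped. The 19 thick limb genes summed to 14290 to 15630 CPM in WT and 16460 to 17380 CPM in KO. Their part in the differences of the members was not tested.

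At 2 weeks the replicate number carried a pattern of its own. Umod, Kcnj1 and Bsnd were lower in replicate 1 of both genotypes than in the other 4 libraries, and Slc12a3 was higher. Thus 3 of the 8 genes lay below and 1 above, where 27.0% of all genes lay below and 26.1% above. Kcnj1 was at 196 and 201 CPM in replicates 1 of WT and KO and at 245 to 338 CPM in the others. Slc12a3 was at 429 and 454 CPM in replicates 1 and at 279 to 373 CPM in the others. Of the 19 other thick limb genes 6 lay below in replicates 1 and 4 above, and of the 16 other distal genes 3 and 4. Of the 10 thin limb markers 7 lay below and 1 above, of the 10 principal cell markers 5 and 2, of the 10 intercalated cell markers 3 and 6, and of the 8 podocyte markers 0 and 3. WT replicate 1 was female and KO replicate 1 male.

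**Figure D4:**
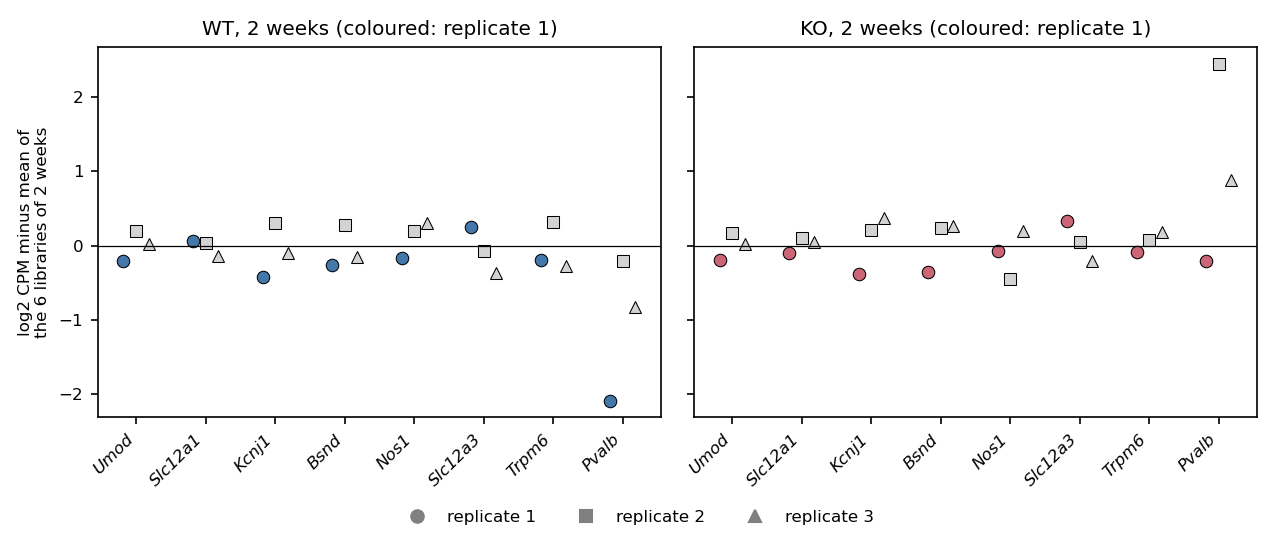
Points show log2 CPM of the 8 genes in each library of 2 weeks, minus the mean of the 6 libraries, for WT (left) and KO (right), with replicate 1 coloured. Replicate 1 sits low for Umod, Kcnj1 and Bsnd and high for Slc12a3 in both genotypes, and Pvalb spreads the most.

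Across the 18 libraries the members differed in which genes they resembled, with Pearson correlations of log2 CPM given as descriptions, since the libraries share age groups. Umod was closest to Mfn1 (r = 0.982), Trpm6 to Slc22a4 (0.975), Nos1 to Moxd1 (0.963), Kcnj1 to Fads6 (0.955), Slc12a3 to Slc5a6 (0.952), Pvalb to Mrpl18 (0.951), Slc12a1 to Ppp1r1a (0.915) and Bsnd to Chst3 (0.881). With the group means removed, the closest gene to Slc12a1 was Stk39, which encodes the kinase SPAK (0.897). Among the members themselves, Kcnj1 and Bsnd had r = 0.84 after the group means were removed and 0.05 before. Umod and Slc12a1 had 0.61 after and 0.67 before.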

How the data were processed

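Whole-kidney RNA-seq libraries of 6 groups (WT and KO at 1, 2 and 4 weeks, 3 libraries each) were used. Per the file headers, each gene and library has an estimated count made by the authors and an FPKM value, scaled by them to transcript length and library total. Of the deposited counts 6.86% to 8.44% per library were fractional, and each was rounded for the count models. Tools listed in the submitters' processing notes are fastp, Bowtie2, HISAT2 2.1.0, StringTie 1.3.1 and RSEM. Build and annotation were not given in the sources used here. Total counts were 14930565 to 21427764 per library. No molecular identifiers mark PCR copies, so low counts such as those of Nos1 carry more error than counting gives.

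Counts were fitted with edgeR 4.0.16 in R 4.3.3 (quasi-likelihood F test, TMM scaling, filter by group, 18 libraries and 6 group means). P-values were adjusted by Benjamini-Hochberg over 14774 genes for each of 11 comparisons, and a gene was called, and said to have risen or fallen, at an adjusted p under 0.05. CPM values are TMM-scaled, and group values and fold changes are given with SD or SE as stated; n is 3 per group. Alternatives were a fit on the 6 libraries compared, RLE scaling, no filter, a replicate block, sex as a covariate, DESeq2 1.42.0, limma 3.58.1 on log2(FPKM + 1) and log2(FPKM + 0.1), and leaving out each library. For list genes, these runs were added after seeing the data. Sex was read from the summed CPM of Y-linked genes (over 10 for male), with Xist not used here.

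On data simulated for KO against WT at 4 weeks over 14774 genes, the test recovered 53 of 100 genes changed 2-fold and 81 of 100 changed 4-fold, with 4 false calls. The simulated libraries were independent, and each gene had the same spread in all 6 groups. In the data, pairs of KO libraries of 4 weeks differed more (mean chi-square per gene 39.4 to 46.2) than pairs of WT libraries (8.47 to 17.6). The simulated false calls therefore cannot vouch for the calls at 4 weeks. Same-numbered WT and KO libraries deviated together at 2 weeks, with correlations across genes of 0.68, 0.31 and 0.46. WT replicate 2 was as close to KO replicate 3 (0.35), while WT replicate 1 was at -0.26 and -0.56 with KO replicates 2 and 3. Replicate 1 thus stood apart more than the numbers paired. Same-numbered libraries did not deviate together at 1 week (-0.04, 0.18 and 0.18) or at 4 weeks (0.07, 0.16 and 0.01). The labels give numbers only, so the likeness of same-numbered libraries at 2 weeks comes from the data. Libraries of a group differed by more than sampling noise.

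The members and the gene lists were chosen with earlier results of these data known. Named are the 8 members, Ecm1, up to 4 genes per list at 4 weeks and up to 3 per age step by smallest p, and the closest genes by correlation over the 18 libraries; Calb1 and Slc8a1, Kl in KO and the values of single KO libraries were picked after they were seen. Promoters are from RefSeq tables of GRCm38.p6 and positions from GENCODE M21; the build behind the counts may differ. Some genes and motifs of the lists are not reported here.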

Additional observations from a re-analysis of the deposited data

Results flagged for a closer look

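Ptpro, a receptor phosphatase of podocytes read here as a marker of another cell type, had a genotype difference that changed with age. Its genotype by age term for 4 weeks against 2 weeks was 1.18 ± 0.19 on the log2 scale (edgeR adjusted p = 0.0221), so the change was tested directly. At 2 weeks it was at 58.5, 55.7 and 48.4 CPM in WT and 42.8, 45.1 and 46.1 CPM in KO. At 4 weeks it was at 33.3, 29.4 and 29.8 CPM in WT and 51.5, 57.0 and 64.7 CPM in KO, where all 3 KO libraries lay above the WT range. The term did not pass with sex as a covariate (1.09, 0.0966), nor with limma on log2(FPKM + 1) without a filter (1.07, 0.0688). It also ended in 7 of the 12 fits that left out 1 library (adjusted p 0.0504 to 0.0958), those without WT replicate 1 or any KO library of 2 weeks, or without WT replicate 2 or 3 or KO replicate 3 of 4 weeks. Groups of 3 libraries are too small to single out 1 library as far from the others.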

How the results depend on the processing

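With 3 libraries per group the counts of called genes moved easily at 4 weeks. KO against WT at 4 weeks gave 1 of the 8 genes, and 0 in the fit on the 6 libraries compared, with sex as a covariate and in each of the 3 limma fits on FPKM; leaving out 1 library gave 0 to 1. The step from 1 to 2 weeks in KO gave 5 genes, 1 with sex as a covariate, and 3 to 5 when 1 library was left out. The step from 2 to 4 weeks in KO gave 4 genes, 1 in the fit on the 6 libraries compared, 2 in each of the 3 limma fits, and 2 to 4 when 1 library was left out. Genotype by age for 4 weeks against 2 gave 0, and 1 with DESeq2. The WT steps gave 4 to 5 genes each when 1 library was left out. The cause was not tested.

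The sign turned for values that had not passed. Leaving out 1 library at a time moved KO against WT at 4 weeks from -0.34 to 0.03 for Umod (above 0 without WT replicate 3, and 0.02 without KO replicate 3), from -0.06 to 0.22 for Bsnd (-0.03 and -0.05 where WT replicate 2 or KO replicate 3 was absent), from -0.18 to 0.15 for Trpm6 (0.06 without WT replicate 2) and from -0.60 to 0.24 for Calb1 (above 0 where KO replicate 2 was absent). Trpm6 was 0.02 in the 3 limma fits. In the 3 limma fits on FPKM the 1 to 2 week step of Bsnd in WT became -0.02, and from 2 to 4 weeks Slc12a3 in WT became -0.12, Kcnj1 became -0.16 in WT and -0.07 in KO, and Slc12a1 in KO became -0.32. Nos1 from 2 to 4 weeks in KO ran from -0.31 to 0.13 when 1 library was left out (0.05 in the absence of KO replicate 3 of 2 weeks).

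Blocking on replicate number left the counts of called members as they were in all 11 comparisons (1 of 8 for KO against WT at 4 weeks). With the block the all-gene count went from 477 to 931 at 4 weeks, where same-numbered libraries did not deviate together. It went from 5 to 19 for the average over ages, and from 9 to 23 for genotype by age for 4 weeks against 1. The reason was not tested. Over all genes, KO against WT at 4 weeks called 2 in the fit on the 6 libraries compared, 266 with sex as a covariate and 906 with DESeq2. DESeq2 called 101 for the average, 4 and 2 for 1 and 2 weeks (edgeR 1 and 1), and 173 and 141 for the genotype by age terms of 4 weeks against 2 and 1 (edgeR 26 and 9). KO from 2 to 4 weeks called 5447, and 3275 in the fit on the 6 libraries compared; KO from 1 to 2 weeks called 2881, and 1469 with sex as a covariate. The split at 4 weeks was 321 higher and 160 lower with limma on log2(FPKM + 0.1). Depth limits Nos1 and Pvalb most, and Nos1 had 19 to 27 counts per WT library of 4 weeks.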
